A study of Mus musculus with 8 samples.

Results

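Open chromatin was examined at 7 mouse genes that belong to multicopy families of the early embryo. They are the Eif1a-like genes Gm8300, BB287469 and Gm2016 on chromosome 12 and the Pramel genes Pramel17, Pramel18, Gm13043 and Gm13040 on chromosome 4, 7 of the 49956 genes with coordinates in RefSeq's annotation of GRCm38.p6 (mm10). The genes were taken by symbol, and every deposited region within a gene body or 50 kb on either side was collected. The genes had been selected on earlier results of these same data, in which Gm2016 stood out by the score of its region in the Ubc9 pair, so the counts and scores of that pair are given as a description with no test. BB287469 and Gm2016 have overlapping windows, as do Pramel17 with Pramel18 and Gm13043 with Gm13040, which leaves 4 separate windows of 104, 161, 177 and 131 kb.

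The regions come from ATAC-seq, in which a transposase cuts and tags accessible DNA, in mouse embryonic stem cells kept for 4 passages in 2i/LIF, a medium that holds cells in the naive state. Cells of the v6.5 line with a TET-OFF Ubc9 allele, depleted of Ubc9 by 72 hours of doxycycline, were set against Ubc9-control cells of the same line, and cells of genotype H1.2-/-H1.3-/-H1.4-/- against H1-WT cells of a line taken from an earlier publication. Ubc9 is the conjugating enzyme of the SUMO pathway, and H1.2, H1.3 and H1.4 are linker histones. Doxycycline is named for the depletion only, so drug and depletion cannot be told apart, and the labels do not say whether the H1 lines are single clones. Each of the 4 groups has 2 replicates, but there is 1 deposited list per group, made from both, so no value below has a replicate error and a difference between lists has no replicate check.

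Eif1a encodes a translation initiation factor that helps the small ribosomal subunit find the start codon, and the mouse genome holds extra, intact copies related to it on chromosome 12. Pramel genes encode leucine-rich repeat proteins related to PRAME and form large tandem clusters, many of them active in oocytes and early embryos. Transcripts of both families are known from the 2-cell embryo and from the rare cells in stem cell cultures that resemble it.

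The promoter of BB287469 is shown first, with those of 3 neighbours on chromosome 12 that align to it, because they let the open region at this gene be set beside its sequence relatives. The promoter table, from RefSeq, held 4 of the 7 members. Gm8300, Gm2016 and Pramel18 were not among them. Each line gives the 250 bases before the annotated start, 5′ to 3′, and capitals mark the letters GATTGAAT or their reverse complement ATTCAATC. The windows in GRCm38.p6 are chr12:87816327-87816576 for BB287469, chr12:87618659-87618908 for Gm4027 and chr12:87970578-87970827 for Gm2046, all on the plus strand, and chr12:87775756-87776005 on the minus strand for Gm21319.
BB287469: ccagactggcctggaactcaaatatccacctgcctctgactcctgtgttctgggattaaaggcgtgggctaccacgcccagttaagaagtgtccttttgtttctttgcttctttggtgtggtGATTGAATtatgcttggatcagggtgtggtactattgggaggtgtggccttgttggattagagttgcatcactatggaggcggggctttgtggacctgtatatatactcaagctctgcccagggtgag
Gm4027: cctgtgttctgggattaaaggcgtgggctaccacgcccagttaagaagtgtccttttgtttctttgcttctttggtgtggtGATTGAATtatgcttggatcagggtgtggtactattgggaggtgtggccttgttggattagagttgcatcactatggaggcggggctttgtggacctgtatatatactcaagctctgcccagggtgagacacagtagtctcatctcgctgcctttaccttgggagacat
Gm2046: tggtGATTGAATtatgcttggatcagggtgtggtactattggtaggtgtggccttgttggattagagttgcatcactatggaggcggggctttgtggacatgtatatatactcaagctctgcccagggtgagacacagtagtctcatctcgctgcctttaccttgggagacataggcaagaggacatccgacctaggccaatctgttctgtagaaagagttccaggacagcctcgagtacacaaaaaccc
Gm21319: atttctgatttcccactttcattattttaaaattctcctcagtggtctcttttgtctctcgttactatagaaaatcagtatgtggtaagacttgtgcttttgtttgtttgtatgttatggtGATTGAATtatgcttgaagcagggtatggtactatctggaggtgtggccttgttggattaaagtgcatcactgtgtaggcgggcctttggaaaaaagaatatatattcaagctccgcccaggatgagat

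Over the 300 bases that the table holds per promoter, the sequence of BB287469 aligned to that of Gm4027 with 258 identical positions of 259 (99.6%) and to that of Gm2046 with 179 of 182 (98.4%). Gm21319 was a more distant relative, with 175 identical positions of 216 (81.0%). A region of the Ubc9-depleted list covered all 250 bases at BB287469, Gm4027 and Gm2046. No region of any other list touched these 3 promoters, and no region of any of the 4 lists touched that of Gm21319.

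The promoters of the Pramel members in the promoter table are shown beside that of a close relative, Pramel31, because a region lay on that of Pramel31 only. The windows are chr4:143511093-143511342 for Gm13043, chr4:143535704-143535953 for Gm13040 and chr4:144357714-144357963 for Pramel31, on the plus strand, and chr4:101844023-101844272 on the minus strand for Pramel17. The promoters shown were chosen after their values had been seen. Pramel31 is not a member and stands here as the closest relative of Gm13043 in sequence.
Gm13043: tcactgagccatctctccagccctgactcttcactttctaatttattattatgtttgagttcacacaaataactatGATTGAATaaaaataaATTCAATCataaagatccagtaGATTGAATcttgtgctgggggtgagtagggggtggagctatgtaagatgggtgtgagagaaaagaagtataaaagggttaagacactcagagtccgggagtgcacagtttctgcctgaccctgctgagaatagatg
Gm13040: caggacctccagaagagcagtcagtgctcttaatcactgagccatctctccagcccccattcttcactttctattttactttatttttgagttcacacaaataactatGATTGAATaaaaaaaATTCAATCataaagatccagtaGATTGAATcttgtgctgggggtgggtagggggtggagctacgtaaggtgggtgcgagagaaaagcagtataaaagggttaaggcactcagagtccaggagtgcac
Pramel31: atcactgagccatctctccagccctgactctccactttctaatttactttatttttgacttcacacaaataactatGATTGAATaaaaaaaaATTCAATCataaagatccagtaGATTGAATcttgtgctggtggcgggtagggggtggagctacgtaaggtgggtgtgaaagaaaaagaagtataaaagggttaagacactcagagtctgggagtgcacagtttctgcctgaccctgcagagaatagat
Pramel17: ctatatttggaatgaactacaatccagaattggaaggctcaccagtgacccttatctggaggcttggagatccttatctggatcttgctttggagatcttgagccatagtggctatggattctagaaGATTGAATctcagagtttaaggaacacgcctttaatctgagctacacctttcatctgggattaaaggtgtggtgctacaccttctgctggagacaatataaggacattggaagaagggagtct

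The 300 bases of Gm13040 were identical to those of its neighbours Gm13057 and Pramel20, so reads from these 3 promoters cannot be assigned to 1 copy. Gm13043 shared 284 of 300 aligned positions (94.7%) with Pramel31 and 252 of 270 (93.3%) with Gm13040. None of the 4 lists had a region on the promoters of Gm13043, Gm13040, Gm13057, Pramel20 or Pramel17. At Pramel31 a region of the Ubc9-depleted list with a score of 70.8 covered 149 of the 250 bases, and the other 3 lists had none. That score is low for the depleted list, whose median was 128.

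All 4 members in the promoter table carried the letters GATTGAAT on one strand or the other. Positions count from the gene start, with -1 the last base before it. BB287469 had 1 copy, whose first base is at -128, and Pramel17 had 1, at -123. Gm13043 had 3, at -174, -158 and -136, and Gm13040 had 3, at -142, -127 and -105. Of 32851 promoters in the table, 0.469% held at least 1 copy, and 5 held at least 2: Gm13043, Gm13040, Gm13057, Pramel20 and Pramel31. Of 4 other strings searched, TATATATA on the coding strand was in 0.737% of all promoters and in those of BB287469, Gm4027 and Gm2046, and TATAAA, in 7.59%, was in those of Gm13043 and Gm13040. TAATCC in either orientation, in 6.25% of all promoters, occurred at 2 places in BB287469 and at 1 in Pramel17, and CCAAT in either orientation, in 33.8%, at 1 place in BB287469 and at 2 in Pramel17. All 5 strings were chosen after the promoters had been read, and a letter match is a description. The promoters of Gm10264 and Pramel24, covered over 250 and 215 bases by regions of depleted cells only, held no GATTGAAT. The members' promoters were 40.4 to 49.6% G and C, against a median of 52.4% over the table.

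The 3 Eif1a-like members each had a region across the lower-coordinate end of the gene in Ubc9-depleted cells. Distances are in bp from that end, negative outside the gene. At BB287469 (chromosome 12, 87816577 to 87820676), where that end is the annotated start, it ran from -354 to 582, with a score of 432. At Gm2016 (87874072 to 87877859) it ran from -342 to 757, with a score of 319, and at Gm8300 (87514316 to 87518265) from -311 to 561, with a score of 354. No strand was used for Gm2016 and Gm8300.

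Scores are the authors' own, per region, and rank regions within a list. These 3 stood above 92.1%, 85.5% and 88.0% of the regions of the depleted list, whose median score was 128. They were 937, 1100 and 873 bp wide, against a median of 431 bp. The order by score was BB287469, Gm8300, Gm2016, and there is no spread to tell neighbours in it apart.

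In Ubc9-control cells BB287469 and Gm2016 had no region at either end, and Gm8300 had 1 of 335 bp with a score of 91.4, above 27.6% of the control list. That region lay inside the depleted one, from -264 to 70. In H1 triple-knockout and H1 wild-type cells none of the 3 genes had a region at an end or anywhere in its body. The nearest H1 regions were 2939 bp from BB287469 in wild-type and 11601 bp in knockout cells, 3030 bp from Gm2016 in knockout and 3607 bp in wild-type cells, and 25186 bp from Gm8300 in wild-type and 41860 bp in knockout cells.

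**Figure D1:**
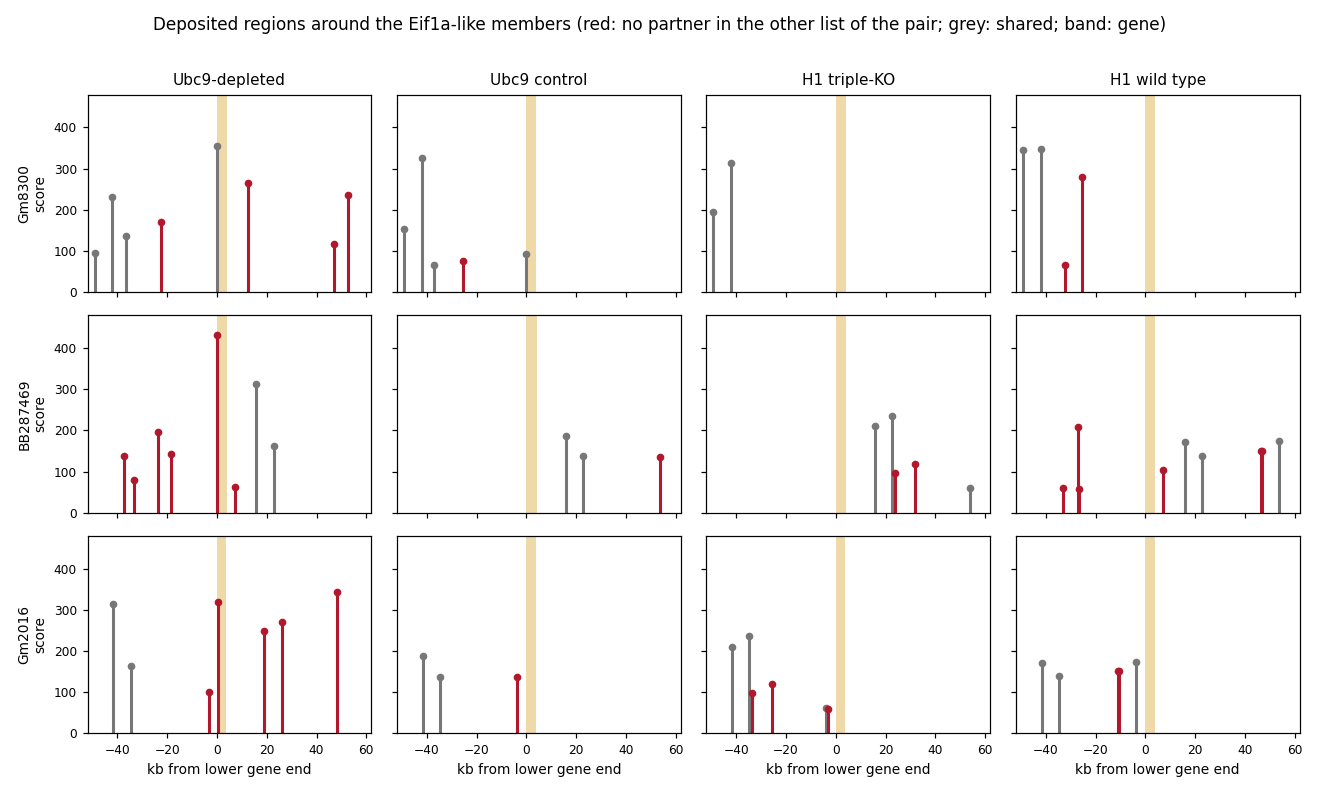
Each panel plots the deposited regions within 50 kb of 1 Eif1a-like gene in 1 list, as distance in kb of the region's middle from the lower-coordinate gene end against the authors' score. The band is the gene, and regions in red have no partner in the other list of the pair. A region stands at the gene end of all 3 genes in the Ubc9-depleted column, at Gm8300 only in the control column, and at none in the H1 columns.

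None of the 4 Pramel members had a region within 1 kb of an end or inside the gene in any list. For Pramel17 (chromosome 4, 101834969 to 101844022, minus strand) the nearest region of depleted cells was 6969 bp away with a score of 82.5, and that of control cells 9449 bp away with a score of 121. For Pramel18 (101909121 to 101911908) it was 1760 bp away in depleted cells, with a score of 127 and no partner in control cells, where the nearest was 14784 bp away. The nearest H1 regions of both genes were at least 15599 bp away.

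Gm13040 (143535954 to 143542471) went the other way. A region 1658 bp before its start was present in Ubc9-control cells with a score of 94.9 and in H1 wild-type cells, 1845 bp before the start, with a score of 128. It was absent from the lists of Ubc9-depleted and H1 triple-knockout cells, in which the nearest regions were 4209 and 42538 bp away. For Gm13043 (143511343 to 143517831) the same region, 15790 bp beyond the gene, was the nearest in control cells, and the nearest in depleted cells lay 28849 bp away with a score of 50.8, close to the list's lowest.

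**Figure D2:**
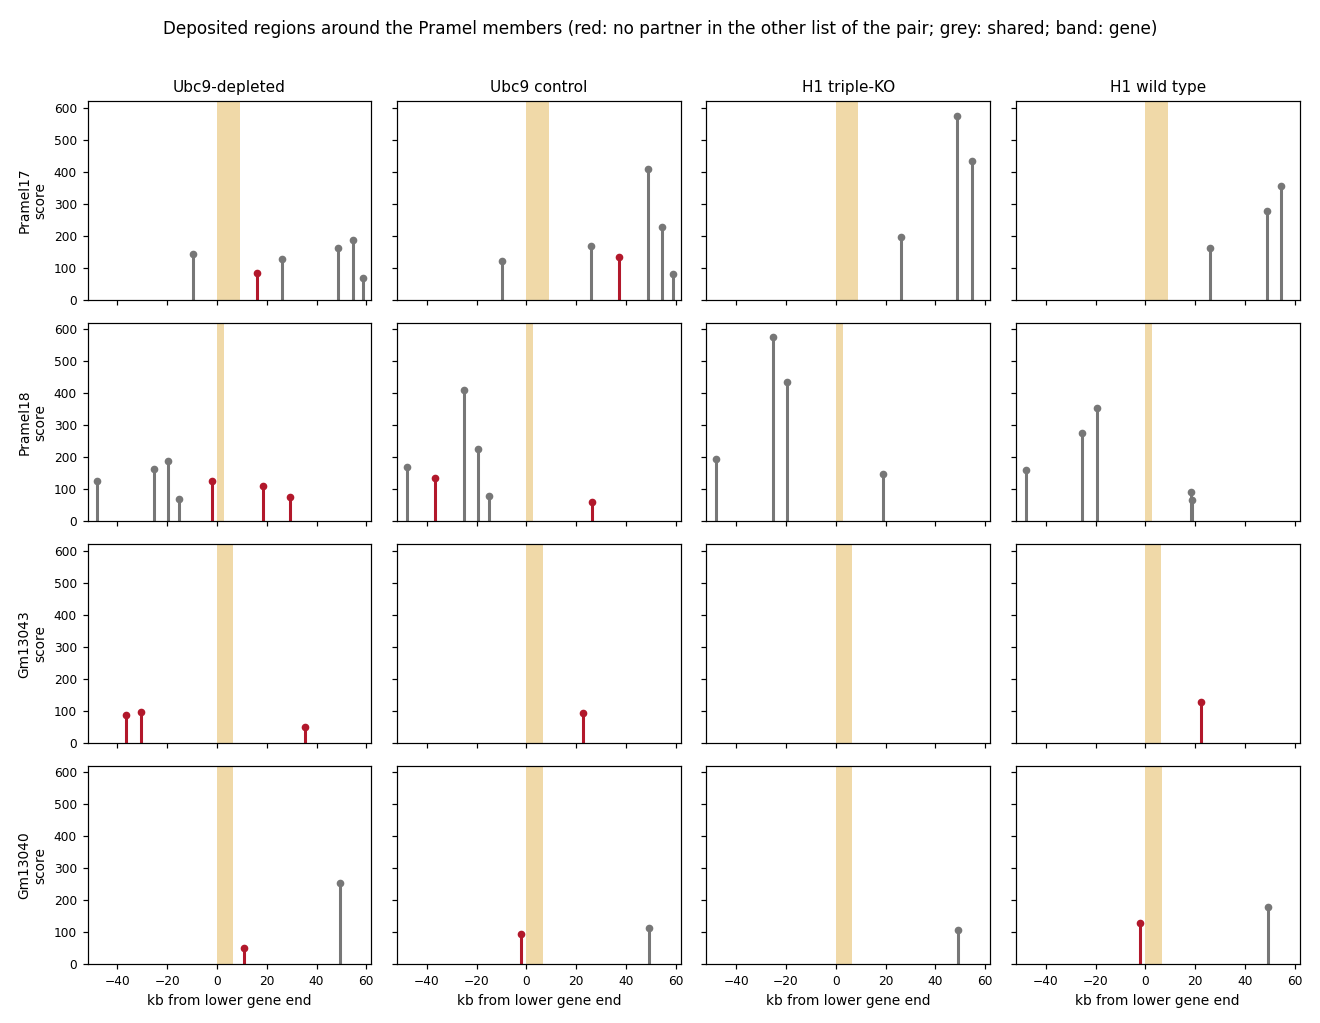
Each panel plots the deposited regions within 50 kb of 1 Pramel gene in 1 list, as distance in kb from the lower-coordinate gene end against the authors' score, with the gene as a band and regions without a partner in the pair in red. No region touches any of the 4 genes, and the highest-scoring region of the depleted list in these panels, 254, lies 42505 bp from Gm13040 and is shared by all 4 lists.

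By gene, then, 2 of 7 members, BB287469 and Gm2016, had a gene-end region in depleted but not in control cells. Over the 21883 protein-coding genes of the table this held for 5.29%, and 3.13% had one in depleted cells and in none of the other 3 lists, as these 2 members did. None of the 7 had a gene-end region in control cells only (4.02% of all genes), in H1 triple-knockout cells only (4.45%) or in H1 wild-type cells only (4.78%). The 4 Pramel members were without a gene-end region in every list, as were 37.8% of all genes. A gene end here is the window of 1 kb on each side of either annotated end. These shares involve the values that drew attention to the genes, and nothing is read from them.

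The wider windows also held more regions in depleted than in control cells on chromosome 12. Over the 2 windows of the Eif1a-like genes together, the lists held 21 regions in depleted, 8 in control, 8 in H1 triple-knockout and 13 in H1 wild-type cells. Relative to the mean density of chromosome 12 in the same list, that is 4.35, 1.68, 1.47 and 2.45 times as many per Mb. Over the 2 Pramel windows the lists held 13, 9, 5 and 7 regions, or 2.06, 1.54, 0.741 and 1.06 times the density of chromosome 4.

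Of the 21 regions of depleted cells around the Eif1a-like genes, 15 had no partner in control cells (71.4%, exact 95% interval 47.8 to 88.7, which covers counting error only), and 2 of the 8 control regions had none in depleted cells (25.0%, 3.19 to 65.1). Over the whole lists 45.6% of depleted and 43.3% of control regions had no partner. Around the Pramel genes the numbers were 7 of 13 (53.8%, 25.1 to 80.8) and 3 of 9 (33.3%, 7.49 to 70.1). Neighbouring regions are not independent and the depleted regions include those that drew attention to the genes, so nothing is read from these shares.

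**Figure D3:**
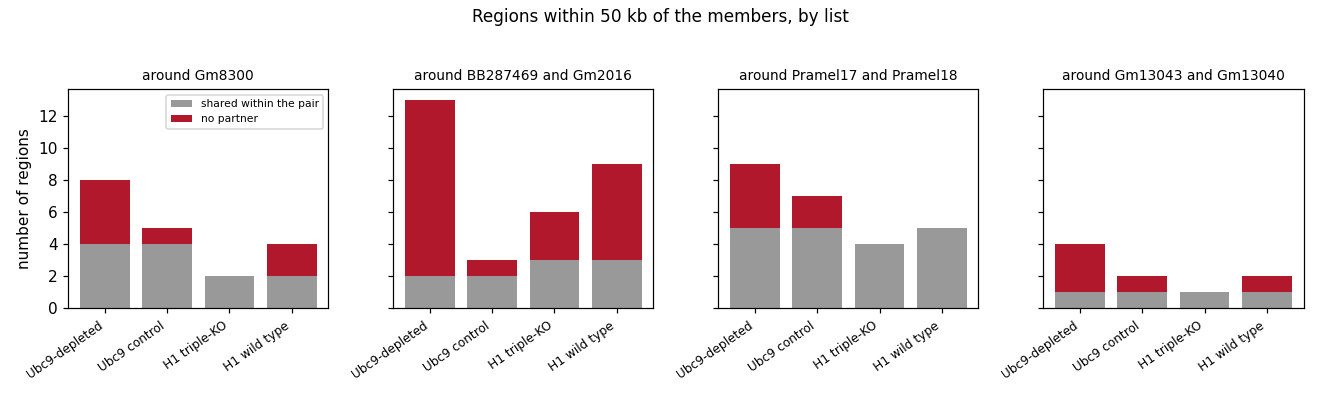
Bars give the number of deposited regions in each of the 4 windows and lists, divided into regions shared within the pair (grey) and regions with no partner (red). Around BB287469 and Gm2016 the depleted list holds 13 regions, 11 of them without a partner, against 3 and 1 in control cells, while around Pramel17 and Pramel18 it holds 9 against 7.

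The regions with no partner on chromosome 12 ranged in score from 62.3 to 432 in depleted cells. Their median, which includes the gene-end regions of BB287469 and Gm2016, was 196, against 106 for all partnerless regions of the depleted list. Around the Pramel genes the median was 88.6. The highest after the gene ends were a region of 693 bp with a score of 343 across an end of the pseudogene Gm2035, one of 480 bp with a score of 270 that overlapped no annotated gene, one of 437 bp with a score of 264 between the pseudogenes Gm18626 and Gm18615, and one of 621 bp with a score of 249 across an end of the protein-coding gene Gm2022. A pair of regions over the pseudogene Gm21939 had scores of 138 and 78.4.

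When overlapping regions of all 4 lists were joined, the windows held 46 open stretches. Of these, 18 were in depleted cells alone, 12 on chromosome 12 and 6 on chromosome 4. Those in depleted cells alone were 39.1% of the stretches in the windows, against 19.7% of the 94652 stretches of the whole lists. The 18 include the gene-end regions of BB287469 and Gm2016, values that drew attention to the genes, so nothing is read from this share. Another 2 were in control cells alone (5.19% of all stretches), 2 in H1 triple-knockout cells alone (11.9%) and 5 in H1 wild-type cells alone (8.88%). Common to all 4 lists were 8 of the 46, or 17.4%, against 21.8% of all stretches. The 8 common stretches are split evenly, 4 on chromosome 12 and 4 on chromosome 4, and include both regions over the pseudogene Gm21038, between BB287469 and Gm2016, whose scores in depleted cells were 314 and 163.

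The H1 pair had 8 regions around the Eif1a-like genes in knockout and 13 in wild-type cells. Over all 4 windows the counts were 13 and 20, but 2 and 3 with a flank of 10 kb, and no gene body held one. Around the Eif1a-like genes 3 of 8 regions of knockout cells had no partner in wild-type cells, and 8 of 13 the other way (37.5%, 8.52 to 75.5, and 61.5%, 31.6 to 86.1). Over the whole lists the shares were 31.4% and 28.8%. Around the Pramel genes 0 of 5 knockout regions (interval up to 52.2%) and 1 of 7 wild-type regions had no partner. The highest-scoring partnerless wild-type region, 25186 bp from Gm8300 with a score of 281, overlapped a region of Ubc9-control cells. The others included 2 pieces of one peak over the transcribed pseudogene Gm1995 (score 151), one over the pseudogene Gm18983 (67.0) and one over Gm21939 (61.1), and the partnerless knockout regions one over Gm21038 (97.4). Counted by member, 5 of 7 windows had more partnerless regions in depleted than in control cells, against 36.4% of all protein-coding genes, and 4 of 7 more in H1 wild-type than in knockout cells, against 30.7%. Windows that overlap share regions, so these are not 7 separate counts.

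Gene-end regions of depleted cells were also counted at the members' neighbours along chromosome 12. The stretch between Snw1 and Adck1, 0.886 Mb from 87473300 to 88359493, was delimited after the values had been seen and holds 18 protein-coding genes. Of these, 8 had a gene-end region in depleted cells, 2 in control cells, 0 in H1 triple-knockout and 1 in H1 wild-type cells. In depleted but not control cells it was 6 of 18, where 5.29% of all protein-coding genes had one, and BB287469 and Gm2016 are among the 6. Besides the members, the 8 with a region in depleted cells included Gm4027 (score 424), Gm2022 (249), Gm2046 (241) and Gm10264 (260), all among the 6. The remaining gene, Gm5662 (597), also had a region in control cells and is not among the 6. In control cells the 2 were Gm8300 and Gm5662 (103), and the H1 wild-type gene was Oog1 (110), which codes for an oogenesis protein of the Pramel kind. The aligned promoter sequences of Gm4027 and Gm2046 were 99.6% and 98.4% identical to that of BB287469. How reads that match several copies were placed is not given, so the 6 are not known to be separate counts.

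The positions were alike. Except at Gm4027, the depleted regions ran from between -431 and -308 bp outside an end to between 252 and 1020 bp inside, taking Gm5662 at its upper end, where the region runs from -345 bp outside. At Gm4027 the region lay 665 to 1576 bp inside the annotated gene end and covered the promoter listed for its transcript. At both genes with a control region, that region was the narrower, 335 against 873 bp at Gm8300 and 370 against 1366 bp at Gm5662. Pseudogenes of the stretch with a region across an end in depleted cells and none in control cells included Gm2035 (343), Gm2056 (123) and Gm2075 (99.0). In all, the stretch held 49 regions in depleted cells, 32 without a partner, and 24 in control cells, 7 without. In H1 triple-knockout cells it held 30, 7 without a partner, and in H1 wild-type cells 34, 12 without. The shares without a partner over the whole lists are 45.6, 43.3, 31.4 and 28.8% in that order.

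**Figure D4:**
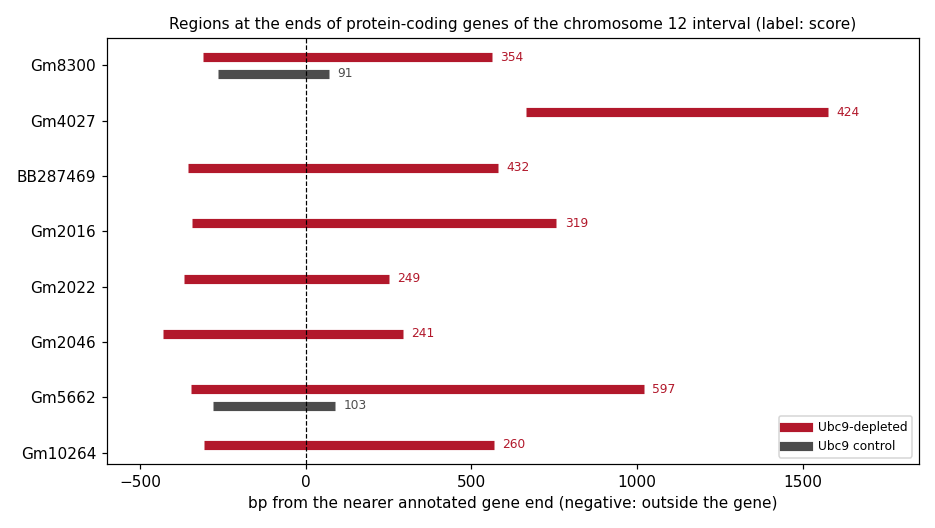
Horizontal bars show the regions at the ends of the 8 protein-coding genes of the chromosome 12 stretch that had one in depleted cells, in bp from the nearer annotated gene end with negative values outside the gene. Labels give the authors' score, in red for Ubc9-depleted and grey for Ubc9-control cells. In 7 genes the red bar crosses the gene end, and grey bars are present at Gm8300 and Gm5662 only.

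Gene families named as such behaved differently. Eif1a itself, Eif1ad and Eif1ax, the 3 genes of the table named for the initiation factor, had a gene-end region in all 4 lists. Of 47 protein-coding genes named Pramel or Pramef, 6 had one in depleted cells, 6 in control cells, 4 in H1 triple-knockout and 4 in H1 wild-type cells. The Ubc9 pair differed at 4 of them. Pramel24 (86.8) and Pramel31 (70.8) had a gene-end region in depleted cells only, or 4.26% of the family, and Pramel13 (152) and Pramel6 (54.0) in control cells only. Pramel1, Pramel11, Pramel12 and Pramel21 had one in both. The share of the family is close to the 5.29% of all genes. Along chromosome 4 from Pramel1 to Pramel13, a stretch of 1.01 Mb also delimited after the values had been seen, depleted cells had 29 regions, 20 without a partner, and control cells 15, 6 without. H1 triple-knockout cells had 15 regions there, 5 without a partner, and H1 wild-type cells 20, 10 without, beside the same 45.6, 43.3, 31.4 and 28.8% over the whole lists.

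Some but not all promoters with sequence like that of Pramel17 had a region in depleted cells, and that of Pramel17 itself had none. The table held 25 other promoters, with Gm33248 entered at 2 starts, whose local alignment to it scored at least 200 (match 2, mismatch -3, gap opening -5, extension -2), a minimum set after the scores had been seen. Of these, 15 were overlapped by a region of the depleted list, 1 by a region of the control list, and none by a region of either H1 list. The 14 in depleted but not control cells compare with 4.06% of all 32851 promoters. Of the 14, 6 are near-identical tandem copies on chromosome 10, Gm21293, Gm8764, Gm21304, Gm21312, Gm20765 and Gm4340, with scores of 189, 243, 261, 207, 189 and 162. Without them the number was 8 of 19.

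The others in depleted cells only were Gm12724 (153), Esp24 (141), Gm52608 (96.7), D17Ertd648e (92.9), LOC105246046 (80.8), LOC115487209 (75.8), Gm35974 (74.1) and Gm36456 (69.2). Among these only Gm12724 and Esp24 scored above 100, where the median of the depleted list was 128. The count of related promoters was not repeated with a score of at least 100. The exception with a region in both lists was Sp110 (184 in depleted and 77.2 in control cells). Among those with no region were Gm12790 and Gm12789, the 2 relatives nearest to Pramel17 on chromosome 4, and Gm13102 in the Pramel cluster of the same chromosome. The promoters related to the other members were few. Of 3 related to BB287469, Gm4027 and Gm2046 had a region in depleted cells only and Gm21319 had none, and of 4 related to Gm13043 only Pramel31 did.

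Other multicopy genes of the 2-cell embryo were counted by the same gene-end rule. All 4 protein-coding Zscan4 genes, 2 of 5 Usp17l genes and 1 of 2 Tcstv genes had a gene-end region in depleted but not in control cells, beside 5.29% of all protein-coding genes. These lists are short and were drawn up with earlier results known. None of 8 Tdpoz and none of 6 protein-coding Obox genes had one in any list. The Zscan4 scores in depleted cells were 185 to 306, below those of the 3 Eif1a-like members, and those of Usp17lb, Usp17lc and Tcstv1 were 68.9 to 86.6. Of the other genes of the chromosome 12 stretch, Gm2022 (249), Gm2046 (241) and Gm10264 (260) lay within the Zscan4 range, and Gm4027 (424) and Gm5662 (597) above it. No difference between the families is read from these scores.

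The genes whose 4-list profile was nearest to the mean of the 7 members, outside their windows, were B4gat1, Plxna3, Hes2, Fam20c and Ccdc40. The measure was the distance between percent ranks of the highest-scoring region within 10 kb of the gene in the 4 lists, which were 52.9, 22.9, 0.753 and 21.3 for the members' mean and 54.6, 24.6, 0 and 17.4 for B4gat1. Single members lay 31.5 to 62.8 from that mean, and the 5 genes 4.61 to 10.8, so the mean describes no single member well.

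Facts of the whole lists bear on these values. The lists held 48730, 46847, 58039 and 55489 regions in the order depleted, control, knockout and wild type, covering 26.8, 21.7, 17.3 and 17.5 Mb. Median region widths were 431, 367, 259 and 273 bp in the same order. The lists of the Ubc9 and H1 pairs differ in form. The narrowest regions were 105 and 110 bp in the depleted and control lists and 1 bp in both H1 lists, and peak names were read from the H1 lists only. Different processing of the pairs limits every comparison across them, and its effect was not tested. Depth behind the lists is unknown. Gene-end regions at markers of embryonic stem cells were present at 5, 6, 6 and 6 of 8 genes. Those of fibroblasts or feeder cells were at 2, 3, 3 and 2 of 7, of primitive endoderm at 3, 3, 2 and 1 of 5, and of trophectoderm at 0, 2, 2 and 3 of 5. The share of all genes with a gene-end region was not counted per list, so nothing is read from these marker counts. An open gene end is not a transcript, and the part of other cell types in the results was not tested. Just inside the 50 kb limit lay regions 49072 bp (score 94.0) from Gm8300 and 44180 bp (343) from Gm2016 in depleted cells, and just outside it the nearest were 59229 bp (141) and 53261 bp (111) from the members of these windows.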

How the data were processed

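ATAC-seq was made from 50000 cells per reaction with 12 PCR cycles, per the labels' protocols. Per the submitters' processing notes, MACS 1.4.2-1, Picard, Bowtie2 and CASAVA 1.8.2 were used on mm10. Per the labels each deposited list combines both replicates of its group. The way of combining, any shift of reads for the transposase and the placing of reads that match several copies are not given in the sources used here. The score the authors deposited per region starts at 50 in these lists and its scale is not stated, so scores were compared only within a list or given side by side. In the H1 lists 1475 and 1173 regions repeat a peak name.

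An overlap of 1 bp or more made regions of a pair shared. Genes, both gene ends and promoters came from RefSeq tables for GRCm38.p6, without mitochondrial genes. Promoters were aligned with Biopython 1.88, and intervals are exact (Clopper-Pearson, SciPy 1.17.1). Named genes are the members, genes under partnerless regions of their windows, up to 6 per family and direction, and 5 most alike genes. Others were named after their values were seen. Members and lists were chosen with earlier results of these data known. The overlap step was tested on simulated data. It disagreed with a direct check at 0 of 1187 and 0 of 1282 regions, and 200 of 200 planted gene-end regions were recovered in each pair among 21896 protein-coding genes, which here included mitochondrial ones. The planted regions lay inside the counted window at genes without a region. Their recovery checks the code only and does not measure how well real regions are detected. Alternatives were other flanks, windows, overlap rules, a score of at least 100 and equal numbers of top-scoring regions.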

Additional observations from a re-analysis of the deposited data

Results flagged for a closer look

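Around 3 of the 4 windows the Ubc9 pair and the H1 pair differed in opposite directions in the number of regions without a partner, perturbed minus control, and the difference between the pairs was not tested. Around BB287469 and Gm2016 the difference was 10 in the Ubc9 pair and -3 in the H1 pair. Around Gm8300 it was 3 and -2, and around Gm13043 and Gm13040 it was 2 and -1. Each is a difference between 2 pooled lists, and the smallest rests on 1 region.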

How the results depend on the processing

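No paired analysis was possible because each deposited list already combines both replicates of its group, and for the same reason no replicate could be left out. In the Ubc9 pair the windows held 17 more regions in depleted than in control cells (34 against 17), 6 more with a flank of 10 kb, 2 more over gene bodies alone and 11 more with equal numbers of top-scoring regions. The surplus of partnerless regions, 17 (22 against 5), became 6, 2 and 11 under the same settings. The last of these kept only the 23423 top-scoring regions of each Ubc9 list, out of 48730 and 46847. It therefore also made both lists shorter, and left 20 against 9 regions in the windows. No setting run for these counts turned a direction. In the H1 pair, knockout minus wild type was -7 regions and -6 partnerless regions, and each became -1 with a flank of 10 kb and 0 over gene bodies. Knockout minus wild type in members with a gene-end region in 1 list only, 0 with 1 kb, was -1 with 2500 bp and -2 with 5 kb. In the Ubc9 pair 2 members had one in depleted cells only and 0 in control cells only. With 2500 bp these were 3 and 1, and with regions scoring under 100 left out 3 and 0, since the control region at Gm8300 scored below it. Region density relative to the genome fell from 1.04 to 0.525 in H1 triple-knockout and from 1.68 to 0.825 in H1 wild-type cells with a flank of 10 kb, and was 3.25 and 3.13 in depleted cells. Alternatives added after the data were seen counted pieces of one peak once, which gave 13 against 19 regions in the H1 pair, and varied the relatives of the Pramel17 promoter: 12 of 18 at a local score of at least 300, 11 of 14 at 400, and 8 without the tandem copies of chromosome 10. Precision is limited by the small number of regions and by the unknown depth, and reads of identical copies cannot be told apart.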

Other observations

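In the depleted list 2 regions of the Pramel17 and Pramel18 window had exactly the same score, 127, and nearly the same width. One, of 320 bp, is shared by all 4 lists and lies between the genes, and the other, of 317 bp, is the partnerless region 1760 bp from Pramel18. Equal scores within 100 kb were found for 10 of 48730 regions of that list (0.0205%). Whether the 2 regions hold the same sequence was not tested.

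Several gene ends between Snw1 and Adck1 had a region in all 4 lists. Between the pseudogenes Gm46998 and Gm46997, which share a region within 1 kb of their ends, the score was 465 in control, 540 in H1 triple-knockout and 461 in H1 wild-type cells and 128 in depleted cells. At Gm8587 the scores were 225, 304, 228 and 89.0 in the same order, and at Gm33654 they were 145, 306, 331 and 84.4. These are given side by side, with no order between lists. Of the 52 genes of this stretch that are not protein-coding, 6 had a gene-end region in depleted cells only and 3 in control cells only. The share over all genes that are not protein-coding was not counted, so nothing is read from these numbers.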
